A study of Drosophila melanogaster with 6 samples.

Results

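Wide Pcl-only regions are stretches of chromatin on the large autosome arms of Drosophila melanogaster where both libraries of Polycomblike (Pcl) gave peaks and neither library of Jarid2 did. They were selected by merging the peaks of the 4 deposited lists wherever peaks overlapped or touched. Merged regions of 1000 bp or more on 2L, 2R, 3L and 3R were kept when they held a peak of both Pcl lists and no Jarid2 peak. Regions inside 3 windows of 3R with dense Pcl peaks (2.4 to 2.9, 12.4 to 12.9 and 17.1 to 17.5 Mb) were left out. The rule gave 351 regions of the 7007 merged regions on all sequences. On the 4 arms outside the windows 5094 merged regions were found, of which 1106, or 21.7%, were called in both Pcl lists and in neither Jarid2 list. Of those 1106 regions, 351, or 31.7%, reached 1000 bp, and the other 755 are called narrow Pcl-only regions here. Both shares are set by the selection and describe it. The wide regions held 66.7% of the bases in the 1106 regions.

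Polycomb repressive complex PRC2 methylates lysine 27 of histone H3 and keeps developmental genes silent, among them the Hox genes of the fly. Its core subunits are joined by accessory proteins that differ between variant forms of the complex, and Pcl and Jarid2 belong to different forms. In flies Polycomb proteins are recruited at Polycomb response elements and the mark they leave can spread over broad domains around these elements.

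The Pcl libraries came from embryos expressing BioTAP-Pcl and the Jarid2 libraries from embryos expressing BioTAP-Jarid2. BioTAP is a tandem affinity tag, so chromatin was purified in a pair of successive steps, on IgG and on streptavidin beads. All groups shared the collection window of 12 to 24 h embryos, whole embryos as tissue, fixation in 3% formaldehyde and the library protocol. Each protein had 2 immunoprecipitated libraries, A and B, and 1 input library without a peak list here. The genotype, the promoter that drove each tagged protein and whether A and B came from separate embryo collections are not given in the sources used here, so the spread between A and B may be technical. The lists of Pcl and of Jarid2 carry different sequencing lanes in their names, and protein and lane cannot be told apart. Whole embryos mix many cell types, so a weak peak in all cells and a strong one in few cells cannot be told apart either.

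The Pcl A list held 5173 peaks and the Pcl B list 3917 peaks, against 1916 in Jarid2 A and 1055 in Jarid2 B. Read totals are not in the lists, but the fold and p-value of a peak together gave the whole number of reads stacked at its summit and the local background expected there. This worked for 100% of the peaks of Pcl A and Pcl B. The lowest background in the list was 6.54 reads in Pcl A and 2.70 reads in Pcl B, a ratio of 2.42. The smallest count called as a peak was 16 reads in Pcl A and 9 reads in Pcl B. Pcl A therefore offers the smaller counting error at a given site.

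The 351 regions ranged from 1004 to 16815 bp in width, with a median of 1624 bp and quartiles at 1245 and 2475 bp. Together they covered 800.8 kb. The distribution had a long upper tail: the widest 10%, or 35 regions, held 29.9% of the covered bases, and 26 regions reached 5000 bp. For comparison, the median width was 496 bp in the narrow Pcl-only regions, which the rule bounds from above. Among regions called in all 4 lists on the same arms, the 74 that also reached 1000 bp had a median width of 2646 bp. The 105 wide Pcl-only regions of X had a median width of 1528 bp.

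The number of wide regions rests largely on Pcl A. A list of regions made without Pcl A held 125 members, against 351 with it, and requiring 1000 bp to be covered in each Pcl list left 163. No test was run on any of these counts, since the members were chosen by the lists that called them and by width, and with 2 libraries a protein the smallest exact permutation p is 33.3%.

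Fold enrichment is the authors' value for each peak, with 1 read added to both the summit count and the background, and each region is given here by its highest peak in a list. The median fold was 5.31 in Pcl A, with a range of 2.34 to 22.8 and quartiles at 4.13 and 7.80. In Pcl B the median was 5.53, with a range of 2.39 to 27.4 and quartiles at 4.35 and 8.61. The average of both medians was 5.42 ± 0.151 (SD, n = 2 libraries). The added read lowers the fold more where the background is small, as in Pcl B.

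**Figure D1:**
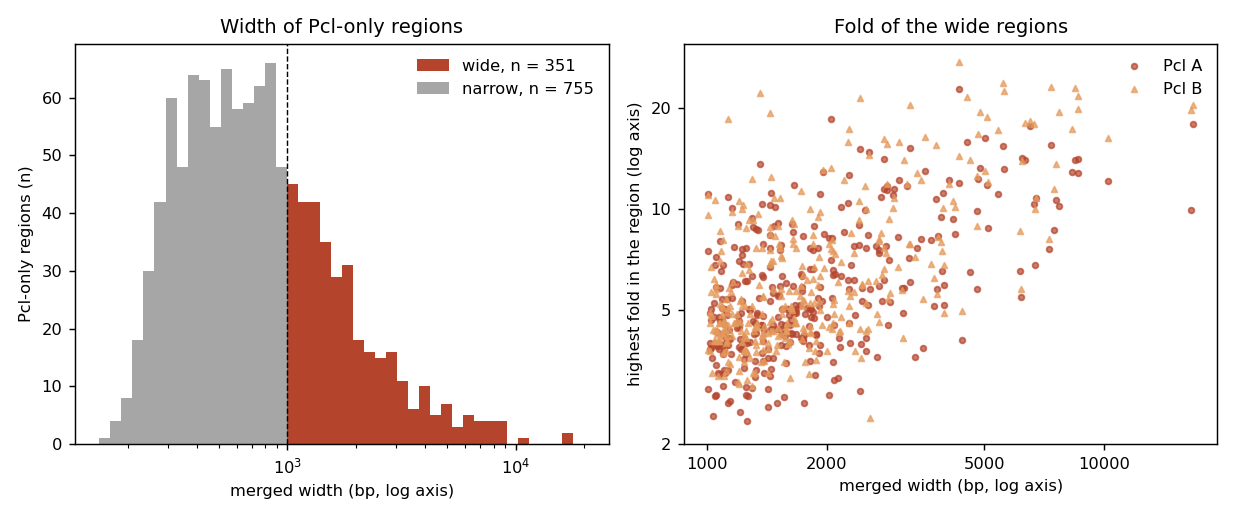
Left panel, number of Pcl-only regions of the large autosome arms (y axis) by merged width (x axis, bp, log scale), for the 351 wide and 755 narrow regions, with a dashed line at 1000 bp. Right panel, highest fold of each wide region (y axis, log scale) against its width (x axis, bp, log scale), with 1 circle for Pcl A and 1 triangle for Pcl B; the number of regions shows no break at 1000 bp, and the 26 regions of 5000 bp or more have no fold below 5.47 in Pcl A or 5.78 in Pcl B.

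A fold above 10 was found for 55 regions in Pcl A and 70 in Pcl B, with 47 regions above it in both. A fold above 20 was given to 1 region in Pcl A and to 11 in Pcl B. Narrow Pcl-only regions had a median Pcl A fold of 3.29 and a median Pcl B fold of 3.83. Both medians of the narrow regions lay below the lower quartile of the wide regions. The 74 wide regions of all 4 lists had a median Pcl A fold of 6.99 and a median Pcl B fold of 9.40, and the wide Pcl-only regions of X had 5.80 and 5.68. Wide Pcl-only regions inside the 3 windows of 3R had 5.05 and 5.15. No test was made between these groups, because called lists and width defined all of them.

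The share of regions whose strongest peak had a q of 1e-05 or below in both Pcl lists was 47.7% over all 1106 Pcl-only regions of the arms. Among the wide regions 289 of 351, or 82.3%, passed this limit in both lists. Among the narrow regions 239 of 755, or 31.7%, did. Of the 74 wide regions of all 4 lists, 73 did, and of the 105 wide Pcl-only regions of X, 89 did. The limit was passed by 339 wide regions in Pcl A and by 296 in Pcl B, so the weaker calls were mostly those of Pcl B.

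At the strongest summit of a region the median count was 54 reads in Pcl A, with a range of 20 to 292. In Pcl B it was 24 reads, with a range of 10 to 209. A count of the median size carries a relative counting error of 13.6% in Pcl A, against 20.4% in Pcl B. The median background at the same summits was 8.93 reads in Pcl A and 3.45 reads in Pcl B. Of the 351 regions, 49 in Pcl A (14.0%) and 76 in Pcl B (21.7%) sat within 1% of the lowest background of their list, against 34.4% of all Pcl A peaks and 36.7% of all Pcl B peaks. In narrow regions the median counts were 29 and 15 reads and the median backgrounds 7.77 and 3.04 reads.

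Regions held their place between the libraries. Spearman's rho between the Pcl A and Pcl B fold was 0.82 over the 351 regions, which share both the selection and the lane, and 39 regions stood among the 50 highest in both lists. Pcl B gave the higher fold in 223 regions, or 63.5%. The fold was also taken without the added read, a comparison added after the data were seen. The medians were then 5.81 in Pcl A, against 6.99 in Pcl B, which was higher in 283 regions, or 80.6%. On this scale Pcl B was also higher in 85.8% of narrow Pcl-only regions and 90.5% of the wide regions of all 4 lists. It was higher in 81.0% of wide Pcl-only regions of X and in 76.8% of those in the 3 windows. The order was thus not particular to the wide regions, and all these sets had to be called in Pcl B.

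**Figure D2:**
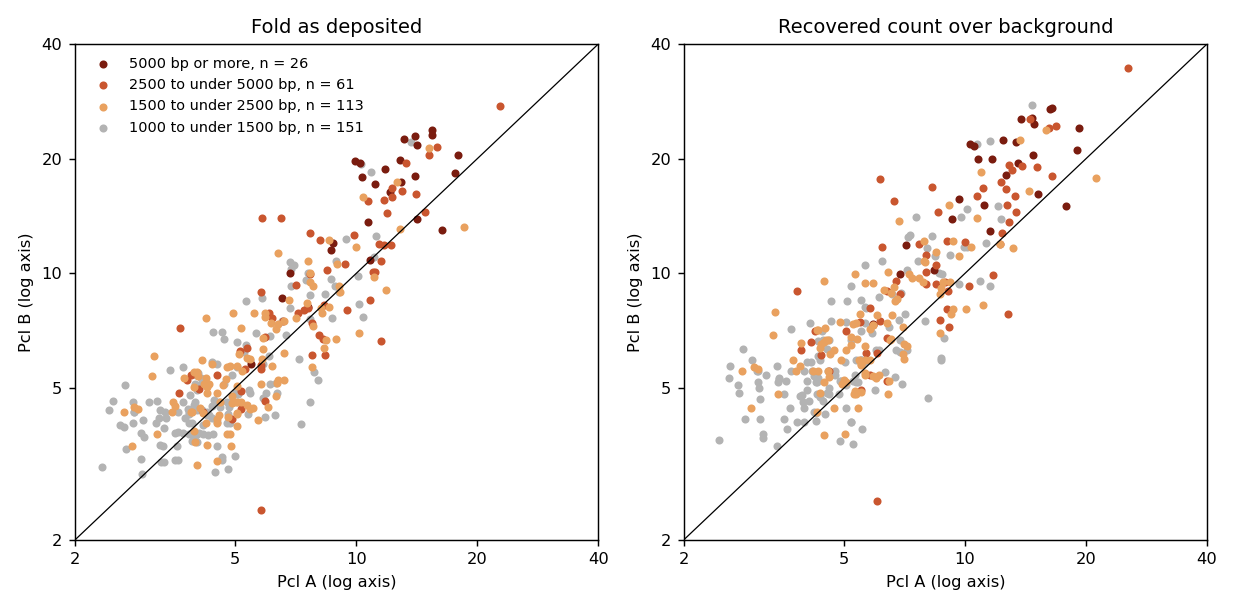
Fold of each of the 351 wide Pcl-only regions in Pcl B (y axes, log scale) against Pcl A (x axes, log scale), coloured by width class, with a diagonal at equal values; the left panel has the highest fold as deposited and the right panel the summit count over its background without the added read. In the left panel 223 regions lie above the diagonal and in the right panel 283, and most regions of 5000 bp or more sit at the upper right of both.

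The largest differences in rank between the libraries were found in 3 regions. The region chr2L:5446046-5447266 had a Pcl A fold of 7.30 and a Pcl B fold of 4.02, placing it at rank 107 and rank 304 of the 351. Next to the first left-out window, chr3R:2910383-2912949 had 5.79 and 2.39, the lowest Pcl B fold of any member, over backgrounds of 19.4 and 10.3 reads. The opposite order was seen at chr3R:19018785-19022127, with 3.64 in Pcl A and 7.19 in Pcl B. This last region lies 63 bp from the second widest region of all.

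Width and fold went together. For widths of 1000 to under 1500 bp, 1500 to under 2500 bp, 2500 to under 5000 bp and 5000 bp or more, there were 151, 113, 61 and 26 regions, and these classes held 23.0%, 26.5%, 25.7% and 24.8% of the covered bases. The median Pcl A fold over these classes, in the same order, was 4.45, 5.10, 7.76 and 11.9. The median Pcl B fold was 4.60, 5.38, 8.13 and 17.6. Spearman's rho of width with fold was 0.52 for Pcl A and 0.53 for Pcl B (n = 351 regions). A peak caller extends a peak while the signal stays above its limit, so height and width come from the same reads and the relation is a description of the calls. In the widest class 19 of 26 regions had a fold above 10 in both lists, and in the narrowest class 5 of 151 did.

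Counts followed the same order. The median summit count in the 4 width classes was 42, 48, 98 and 237.5 reads in Pcl A and 19, 22, 47 and 132.5 reads in Pcl B. With fold taken as count over background, without the added read, the medians were 4.89, 5.66, 8.49 and 12.6 in Pcl A and 5.73, 6.74, 9.93 and 19.96 in Pcl B. The order of the classes held in both libraries on both scales. Counts were recovered from the fold and p-value of the same peaks, so they are not separate evidence for this order.

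The wide regions were divided into more peaks in Pcl B than in Pcl A as the lists were deposited. In Pcl A 275 regions, or 78.3%, consisted of 1 peak, 69 of 2 peaks and 7 of 3 peaks. In Pcl B 114 regions, or 32.5%, had 1 peak, 126 had 2, 56 had 3 and 22 had 4, up to 18 peaks in a single region. Pcl B had more peaks than Pcl A in 209 regions, as many in 124 and fewer in 18. The wide regions took 434 peaks of the Pcl A list and 855 of the Pcl B list, which is 8.39% and 21.8% of the peaks of those lists. The difference depended on the processing. The median was 2 peaks in Pcl B and 1 in Pcl A as reported, 1 in both with peaks of q at or below 1e-05 or with lists of equal size, and 2 in Pcl B against 4 in Pcl A when gaps of up to 1 kb were joined.

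The most Pcl A peaks in a single region, 3, were found in short and in long regions. Of the 7 regions with 3, chr2L:16478398-16479646 was 1249 bp wide, with a Pcl A fold of 2.81 and a Pcl B fold of 4.33. At a similar width of 1252 bp, chr3R:689157-690408 had 3.71 and 3.82. The region chr2L:18879768-18888064 was 8297 bp wide, with 7 Pcl B peaks and folds of 12.9 and 17.3.

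Covered length differed in the same sense. Peaks of Pcl A covered a median of 100% of a region, at least 61.4% in each. Peaks of Pcl B covered a median of 56.4%, with a range of 10.8% to 99.8%, and under 25% of the length in 43 regions. A single Pcl A peak spanned the whole region in 182 cases and a single Pcl B peak in 0. Of the 702 outer edges, 579, or 82.5%, were set by a Pcl A peak and 123 by a Pcl B peak. The widest single peak of a region had a median of 1467 bp for Pcl A and 639 bp for Pcl B. A peak of 1000 bp or more was present in 312 regions in Pcl A and in 89 in Pcl B, with 88 regions in both, and 38 regions reached 1000 bp only by joining shorter peaks. The lower counts of Pcl B moved with its shorter peaks, and the part of depth in this difference was not tested.

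Where Pcl B split a region, its peaks mostly followed each other within about 1 kb. The 504 pairs of neighbouring Pcl B peaks inside a region had summits a median of 682 bp apart, with quartiles at 479 and 1056 bp, and a median gap of 193.5 bp between edges. In Pcl A 83 such pairs were present, with a median gap of 94 bp. In the 237 regions with several Pcl B peaks, the strongest stood above the weakest to a varying degree. The ratio of strongest to weakest, set to 1 where there was a single peak, had a median of 1.3 over all 351 regions and was above 3 in 47, with a maximum of 8.75.

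Peak number in Pcl B went with width. In the 4 width classes the median number of Pcl B peaks was 1, 2, 3 and 6, and the mean was 1.46, 2.08, 3.61 and 6.92. The median number of Pcl A peaks was 1 in all 4 classes. Spearman's rho of width with peak number was 0.70 in Pcl B and 0.13 in Pcl A (n = 351). The median share of a region covered by Pcl B was 48.8%, 55.7%, 60.9% and 72.1% over the classes, so the widest regions were also those most nearly filled in Pcl B.

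The libraries placed the strongest point at nearly the same position in many regions, but not in all. The strongest summits of Pcl A and Pcl B were a median of 88 bp apart, with an upper quartile of 337 bp. They lay within 100 bp in 183 regions, or 52.1%, and were over 1000 bp apart in 23. Narrow Pcl-only regions had a median of 92 bp (54.3% within 100 bp). The 74 wide regions of all 4 lists had 26 bp (78.4%), and wide Pcl-only regions of X had 108 bp (45.7%). Over the 4 width classes the median distance was 120, 129, 44 and 21.5 bp. The widest regions had the closest summits although they offer the most room, and they had the most reads. The part of depth in this order was not tested. The strongest Pcl A summit lay in the middle 50% of the region in 239 regions, or 68.1%.

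**Figure D3:**
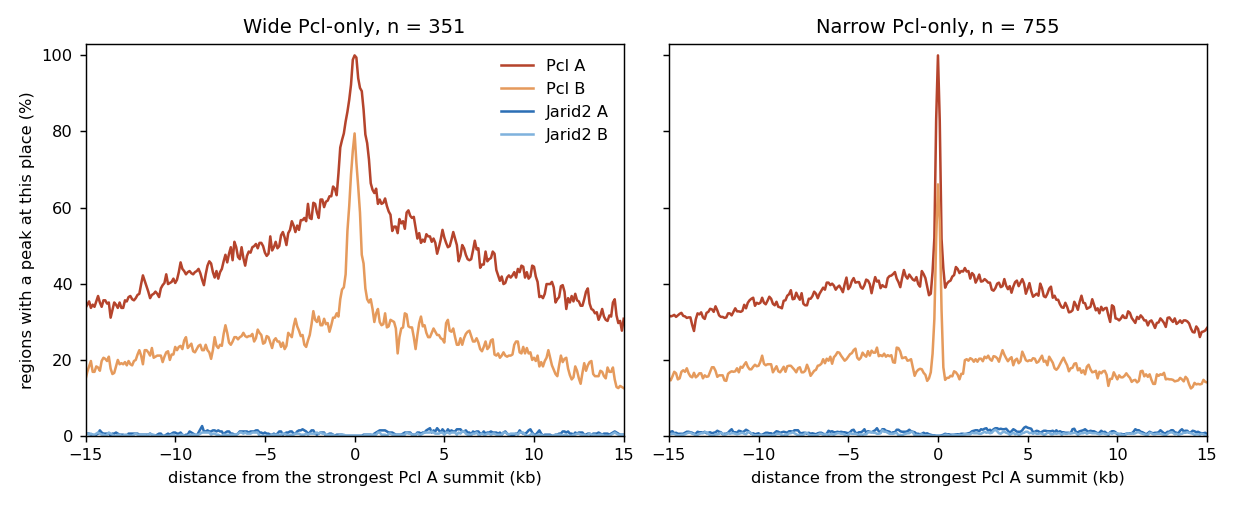
Share of regions (y axis, %) that hold a peak of each list at a given distance from the strongest Pcl A summit (x axis, kb), for the 351 wide (left panel) and 755 narrow (right panel) Pcl-only regions. At the wide regions 79.5% have a Pcl B peak at the Pcl A summit and 33.6% and 30.8% have a Pcl A peak 15 kb to the left and right, while the Jarid2 lines stay near 0 around the centre, as the selection requires.

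Pcl peaks went on beyond the edges of the wide regions. At 1000 bp left and right of the strongest Pcl A summit, 63.2% and 64.7% of the regions had a Pcl A peak and 32.2% and 33.3% a Pcl B peak. At 5000 bp, further out than nearly every region reaches from its own summit, 48.1% and 52.1% had a Pcl A peak and 24.5% on either side a Pcl B peak. At 15 kb the shares were 33.6% and 30.8% in Pcl A and 14.8% and 12.5% in Pcl B. Around narrow regions the shares at 15 kb were 31.7% and 28.3% in Pcl A and 15.1% and 14.0% in Pcl B. At 1000 bp narrow regions had 39.2% and 44.4% in Pcl A and 17.6% and 16.7% in Pcl B, but the width limit itself fixes much of the coverage near the summit. At 15 kb the shares of wide and narrow regions lay within a few percentage points of each other. Nearer in, the wide regions had the higher shares. At 5000 bp narrow regions had 38.5% and 38.7% in Pcl A and 20.8% and 19.6% in Pcl B. At 10000 bp the Pcl A shares were 40.2% and 44.4% around wide regions, against 34.7% and 30.7% around narrow ones. The Pcl B shares there were 23.4% and 20.5%, against 18.4% and 14.8%. These differences were not tested. The share of all places on the arms that hold a Pcl peak is not given here, so only wide and narrow regions can be compared.

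The widest region, chr2R:3905285-3922099, spanned 16815 bp. It held 2 Pcl A peaks, of 7988 and 8476 bp, and 15 Pcl B peaks that covered 87.8% of it. Its fold was 18.0 in Pcl A, and 20.5 in Pcl B, where the 3 tallest peaks had folds of 18.6 at position 3906438, 20.5 at 3912060 and 19.98 at 3918481. The left Pcl A peak had its summit at 3906486 with a fold of 10.6 and the right one at 3918462 with 18.0. Each Pcl A summit thus had a tall Pcl B summit beside it, but the tallest of the whole region was a different one in the 2 libraries, 6402 bp apart, the largest such distance of the 351 regions.

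The second widest, chr3R:19022191-19038826, spanned 16636 bp as 1 Pcl A peak, over which Pcl B called 18 peaks, the most in any region. The fold was 9.95 in Pcl A, from a count of 274 reads over a background of 26.6, and 19.7 in Pcl B, from 182 reads over 8.30. The strongest summits were 3 bp apart. The position was thus nearly the same, while the fold was higher in Pcl B.

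**Figure D4:**
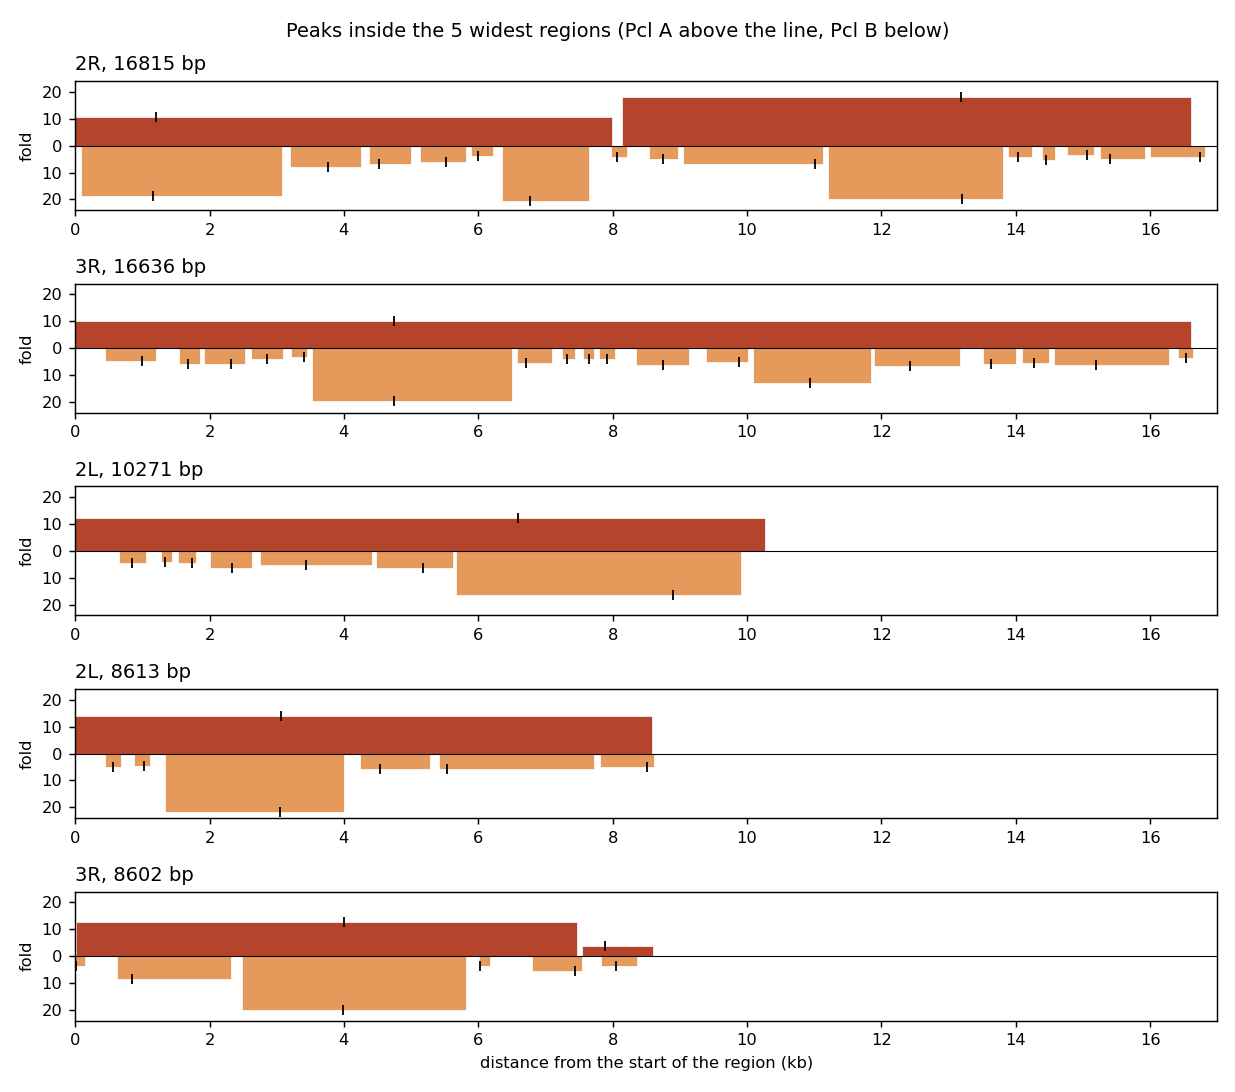
Peaks inside the 5 widest regions, to scale by distance from the start of each region (x axis, kb), with bar height as the fold of the peak (y axis), Pcl A drawn upwards and Pcl B downwards from 0, and a tick at each summit. In each panel Pcl A fills the region with 1 or 2 peaks, and Pcl B divides the same length into 15, 18, 7, 6 and 6 peaks from the top panel down.

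The next 3 in width showed the same layout. The region chr2L:1964036-1974306 spanned 10271 bp with 1 Pcl A peak and 7 Pcl B peaks and had folds of 12.1 and 16.3, at summits 2316 bp apart. The region chr2L:20767529-20776141 spanned 8613 bp, with folds of 14.1 and 21.7 at summits 8 bp apart. Its tallest Pcl B peak was 2664 bp wide, and the 5 other Pcl B peaks had folds between 4.46 and 5.77. The region chr3R:4012758-4021359 spanned 8602 bp, with folds of 12.8 and 19.9 at summits 17 bp apart. In chr2L:1964036-1974306 the tallest Pcl B peak was likewise alone, with the other 6 at 6.39 or less, and in chr3R:4012758-4021359 the next tallest had a fold of 8.60. The widest region had 3 tall Pcl B peaks.

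The strongest region by the mean rank of both folds was chr2R:5863129-5867436, of 4308 bp. It had a fold of 22.8 in Pcl A, from 215 reads (95% exact Poisson interval 187 to 246) over a background of 8.46, and a fold of 27.4 in Pcl B, from 128 reads (107 to 152) over 3.70. These intervals cover counting error only, since PCR copies are not independent molecules. The summits stood at 5866718 in Pcl A and 5866749 in Pcl B. It ranked highest of the 351 in both libraries and was the only region above a fold of 20 in Pcl A. Within the complete peak lists the strongest peak in any wide region ranked 3rd for Pcl A and 10th for Pcl B.

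This region had close neighbours. At 161 bp to its right lay chr2R:5867598-5874867, of 7270 bp, with 1 Pcl A peak and 11 Pcl B peaks, the third highest Pcl B number of all, and folds of 7.59 and 8.14. A further 118 bp on lay chr2R:5874986-5876422, of 1437 bp, with folds of 10.3 and 19.3. On the left, chr2R:5860564-5862286 had 4.13 and 5.92. The widest of these neighbours was thus not the strongest.

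The other regions of lowest mean rank were chr2L:590933-598288, chr3R:11848492-11854045, the widest region described above and chr3R:26605714-26610242. The region chr2L:590933-598288 was 7356 bp wide, with a Pcl A fold of 15.5 and a Pcl B fold of 23.1, from 237 and 146 reads. Its 6 Pcl B peaks ranged from 3.37 to 23.1 in fold, and its summits lay at 594892 (Pcl A) and 594879 (Pcl B). The region chr3R:11848492-11854045 was 5554 bp wide with folds of 15.4 and 23.8 at summits 36 bp apart. The region chr3R:26605714-26610242 was 4529 bp wide with folds of 15.9 and 21.5 at summits 42 bp apart. On 3L, which had none of these 5, the strongest was chr3L:14589446-14595957 with 17.6 and 18.3 at summits 1 bp apart, and the widest was chr3L:21450653-21458137, of 7485 bp, with 8.67 and 11.5 at summits 1636 bp apart.

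Just above the width limit, chr2L:6548103-6549106 and chr2R:7412649-7413652, both of 1004 bp, had folds of 7.51 and 9.64 and of 2.92 and 3.81 in Pcl A and Pcl B, and chr2L:6817118-6818123, of 1006 bp, had 11.1 and 11.01. Just below it, chr2L:15109883-15110879 of 997 bp had 3.20 and 4.30, chr3L:10302267-10303262 of 996 bp had 5.47 and 9.19, and chr2L:12672133-12673126 of 994 bp had 4.38 and 6.49. There was no break in number at the limit: 40 wide regions were under 1100 bp and 48 narrow ones were at 900 bp or more.

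The 4 arms held 82 regions on 2L, 73 on 2R, 75 on 3L and 121 on 3R. Per Mb of the span of each arm, with the windows taken off 3R, this was 3.66, 3.45, 3.16 and 4.57, against 3.74 over all 4. The median width was 1554 bp on 2L, 1710 on 2R, 1536 on 3L and 1779 on 3R. The median folds in Pcl A and Pcl B were 5.04 and 5.15 on 2L, 5.53 and 5.53 on 2R, 4.98 and 5.26 on 3L and 5.47 and 5.76 on 3R. The arms differed little in fold, and 3R had the most regions per Mb even without its 3 windows.

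Along the arms the regions were uneven. Of 97 bins of 1 Mb, 62, or 63.9%, held at least 1 wide region. The fullest bin, 12 to 13 Mb of 3L, held 19, and the first Mb of 3R and the bin from 5 to 6 Mb of 2L held 15 each. In the fullest bin the highest Pcl A fold was 9.06, at chr3L:12583173-12584364, which had a Pcl B fold of 8.92. The highest Pcl B fold there was 14.0, at chr3L:12682936-12687542, which had a Pcl A fold of 6.49.

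Wide Pcl-only regions often lay beside each other. Another wide region was within 1 kb of 153 regions, or 43.6%, within 5 kb of 233, or 66.4%, and within 20 kb of 300, or 85.5%. Nearness is mutual, so the regions are not independent of each other and no interval is given for these shares. Only 27 were over 100 kb from the nearest. The share within 5 kb of another region of the same kind was 71.3% for narrow Pcl-only regions, 64.8% for wide Pcl-only regions of X and 24.3% for the 74 wide regions of all 4 lists. It is not independent of number, since a larger set has nearer neighbours, and no test was made. Without Pcl A the share was 39.2%.

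Joining regions up to 5 kb apart gave 190 runs, of which 118 were single regions and 72 held 2 or more. There were 30 runs of 2, 21 of 3, 8 of 4, 8 of 5, 3 of 6, 1 of 9 and 1 of 11 regions. The 13 runs of 5 or more held 78 regions. In the 161 neighbouring pairs the median gap was 750 bp, and 69 gaps were under 500 bp. Among the 72 runs, 3 had a region called in a Jarid2 list between their members. The share near another region was 58.3%, 69.9%, 72.1% and 84.6% over the 4 width classes.

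**Figure D5:**
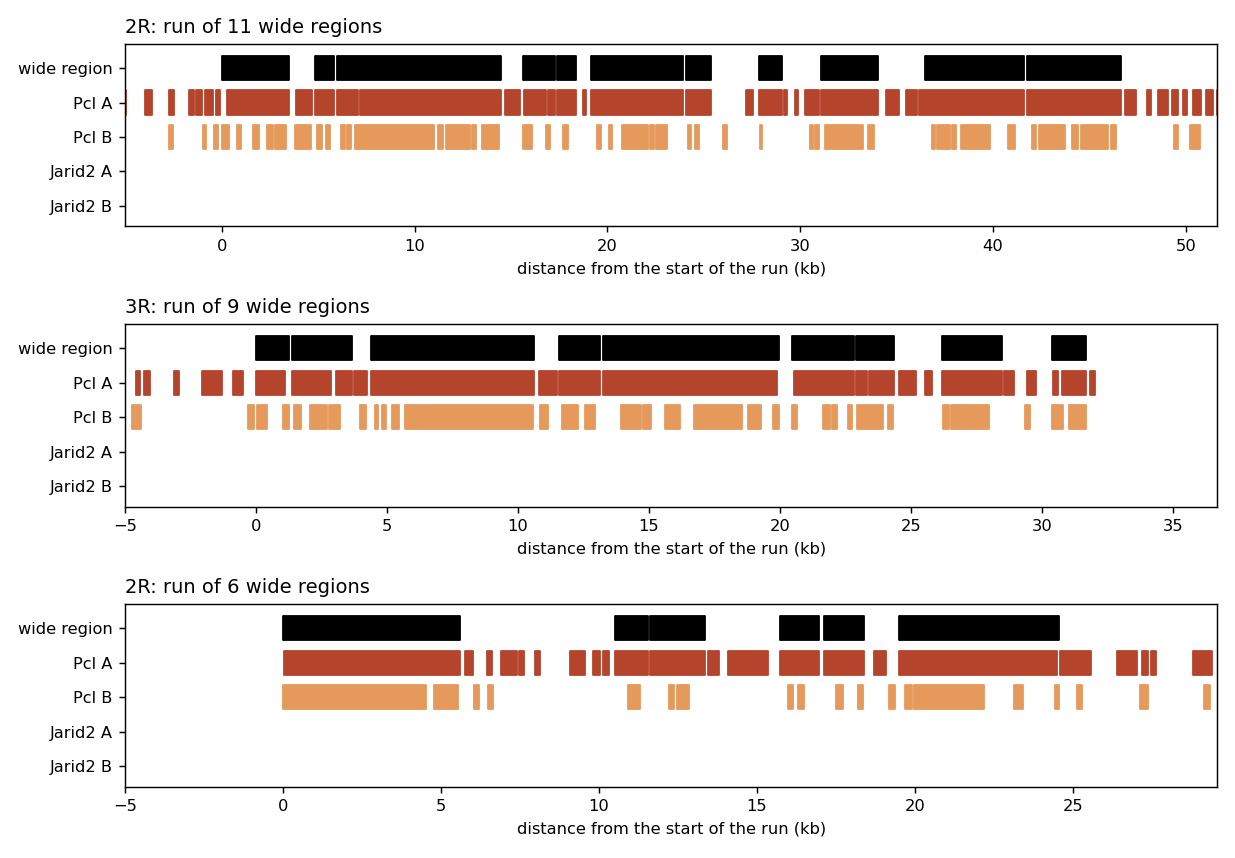
The 3 runs with the most wide Pcl-only regions (for 6 regions, the run of widest span), 1 panel each, with distance from the start of the run on the x axis (kb, with 5 kb drawn on either side) and rows of bars for the wide regions and for the peaks of Pcl A, Pcl B, Jarid2 A and Jarid2 B. Pcl A peaks fill most of each run, Pcl B peaks are shorter and more numerous, and the Jarid2 rows are empty, the nearest Jarid2 peaks lying 37765, 25352 and 45757 bp away.

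Runs are given by number of regions and, where that is equal, by span. The first, chr2R:7407805-7454438, held 11 regions in 46.6 kb, of which 35.9 kb, or 76.9%, was covered. Its regions were 1004 to 8465 bp wide with a median gap of 932 bp, and they held 14 Pcl A peaks and 39 Pcl B peaks. The fold ranged from 2.92 to 14.0 in Pcl A and from 3.24 to 22.9 in Pcl B. The strongest member, chr2R:7413809-7422273, had 14.0 and 22.9, with summits at 7415903 and 7415894. The right end of the run, chr2R:7449557-7454438, had 13.3 and 19.4, and chr2R:7426930-7431722 between them had 9.86 and 12.6. Directly left of the right end, chr2R:7438879-7441827 had 11.5 and 10.8 and chr2R:7444297-7449398 had 8.77 and 12.03. The other 6 regions of the run lay below a fold of 5 in Pcl A. The nearest Jarid2 peak was 37765 bp away.

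The second run, chr3R:12222220-12253921, held 9 regions in 31.7 kb, with 80.4% covered, and lies to the left of the second left-out window. Its folds ranged from 4.19 to 14.2 in Pcl A and from 3.79 to 15.9 in Pcl B. The highest Pcl A fold was at chr3R:12226605-12232835, with 14.2 and a Pcl B fold of 13.9, and the highest Pcl B fold at chr3R:12248421-12250683, with 15.9 and a Pcl A fold of 10.4. The third, chr2R:8770626-8795200, held 6 regions in 24.6 kb with 65.0% covered and had the widest span of the 3 runs of 6. Longer in span, with 5 regions each, were chr2R:3901933-3932986, of 31.1 kb, which contains the widest region, and chr3R:24386526-24413726, of 27.2 kb. The strongest regions of the third run were at its ends. The left end, chr2R:8770626-8776222 of 5597 bp, had 13.2 and 22.5, and the right end, chr2R:8790114-8795200 of 5087 bp, had 11.8 and 18.8. The nearest Jarid2 peak was 25352 bp from the second run and 45757 bp from the third.

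By selection no Jarid2 peak touched a wide region, but the distance to the nearest one was left free. A Jarid2 peak lay within 1 kb of 13 regions, within 5 kb of 75, or 21.4%, and within 20 kb of 178, or 50.7%, with a median distance of 19405 bp. Both Jarid2 lists had a peak within 20 kb of 117 regions. The nearest peak came from Jarid2 A, the longer list, in 276 cases. Narrow Pcl-only regions were nearer, with 25.03% within 5 kb, 63.4% within 20 kb and a median of 12706 bp. Wide Pcl-only regions of X were farther, with 13.3%, 30.5% and 33391 bp, and those of the 3 windows had 2.90%, 16.7% and 61468 bp. These values depend on how many Jarid2 sites each list called, and a Jarid2 signal below the limit of the caller is not seen in them.

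Nearest to Jarid2 was chr2L:7305037-7306157, with Pcl folds of 5.41 and 4.93, at 156 bp from a Jarid2 A peak with a fold of 3.50 and at 266 bp from a Jarid2 B peak. The region chr3L:12647202-12650872, with 8.09 and 6.88, was 352 bp from a Jarid2 B peak with a fold of 2.82 and 505 bp from a Jarid2 A peak. The region chr3L:12682936-12687542, with 6.49 and 14.0, was 416 bp from a Jarid2 A peak with a fold of 2.87 and 36086 bp from one of Jarid2 B. A pair of these lies in the fullest bin of 3L. The strongest of all, chr2R:5863129-5867436, had its nearest Jarid2 peak at 19690 bp.

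Farthest from Jarid2 were 2 regions at the right end of 3R and 1 in its middle. The region chr3R:27896761-27898805 was 461286 bp from the nearest Jarid2 peak, with a Pcl A fold of 18.5 and a Pcl B fold of 13.2. Beside it, chr3R:27894382-27895763 was 458907 bp away, with 7.85 and 5.53. The region chr3R:13391714-13393256 was 185880 bp away, with 6.31 and 7.14. In total 21 regions were over 100 kb from any Jarid2 peak.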

How the data were processed

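ChIP-seq peak lists of BioTAP-Pcl and BioTAP-Jarid2 embryos were analysed, 2 libraries a protein, grouped by their titles. The authors deposited 1 narrowPeak list for each library, with replicates not pooled. In the deposited lists fold enrichment is a linear ratio, the −log10 p and −log10 q columns give each peak's p-value and q-value, the score is a whole number made from −log10 q, and the last column gives the summit offset. The submitters' processing notes name Trimmomatic 0.36, Bowtie 1.2.2, deepTools 3.0.2, MACS2 2.1.1 and the build dm3, without roles. The control behind the fold is not given in the sources used here. They served to describe, rank and filter peaks, and folds of Pcl A and Pcl B were set side by side without a test.

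The members and the measures were chosen with earlier results of these data known, and called lists and width define the members, so no test was run. Peaks were merged where they overlapped or touched. Starts are 1-based. Summit counts were recovered by assuming that fold is count plus 1 over background plus 1 and that p is a Poisson tail. Counts up to 2000 were searched with a relative tolerance of 0.0001. Whole counts were found for 100% of peaks in Pcl A, Pcl B and Jarid2 A and for 0.664% in Jarid2 B, and only those of Pcl were used. Merging, selection and count recovery were tested on simulated data. Arm spans end at the highest peak end.

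The regions named were the 5 widest, the 5 of smallest mean rank of fold, the widest and strongest of each arm, the 3 with most peaks in each Pcl list, the 3 runs with most regions (ties by span), the 3 nearest to 1000 bp on either side, the 3 nearest to and farthest from Jarid2 and the 3 with the largest difference in rank. Neighbours of these, and the regions of highest fold in the fullest bin, were named after their values were seen. No genes or sequences are given, because no genome or annotation of the build of the lists was used here. Alternatives were a q of 1e-05, equal list sizes, other merging and width limits, the 3R windows and leaving out each library. Scripts ran in Python 3.11.15 with pandas 2.3.3, numpy 2.4.6 and scipy 1.17.1, and figures were drawn with matplotlib 3.10.9.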

Additional observations from a re-analysis of the deposited data

How the results depend on the processing

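Over 8 results and their alternatives, 44 of 85 values stayed within set limits of the reported one and 41 moved. The limits were 1.5 times for the number of regions and for summit distance, and the Wilson interval for the share near another region. That interval treats regions as independent, which they are not, so it served only as a set limit. For fold and for peaks per region the limit was the SD between the medians of Pcl A and Pcl B, 0.151 and 0.707. For width it was the SD between the median lengths covered by Pcl A and by Pcl B, 429.9 bp. Each of these SDs comes from 2 libraries, so how many values stayed or moved depends on rough limits. The wide limit for numbers takes in 506, 489 and 259 regions, named below. With peaks of q at or below 1e-05 the median fold was 6.31 (Pcl A) and 6.86 (Pcl B), the median number of Pcl B peaks 1 and the median summit distance 53 bp. With lists cut to equal size (1055 peaks) there were 233 regions of median width 2079 bp, folds of 7.76 and 8.28, 1 Pcl B peak, a share near another region of 50.6% and a summit distance of 36 bp. Joining peaks up to 1 kb apart gave a width of 2823 bp, folds of 4.38 and 4.87, 4 Pcl A peaks against 2 Pcl B peaks and a share of 50.2% in 259 regions. A minimum of 1500 bp gave 200 regions, 2287.5 bp, 6.31 and 6.85, 3 Pcl B peaks and 59.5%. A minimum of 750 bp gave 506 regions, 4.67 and 4.89 and 73.9%. Requiring 1000 bp covered in each Pcl list gave 163 regions, 2536 bp, 7.67 and 7.87, 3 Pcl B peaks, 50.9% and 46 bp. With the 3R windows there were 489 regions and the share was 74.0%, and without the added read the folds were 5.81 and 6.99. Leaving out each library in turn gave 125 to 398 regions, Pcl A folds of 5.34 to 5.65, Pcl B folds of 5.53 to 9.78, 1 to 2 Pcl B peaks and shares of 39.2 to 70.9%. The lowest number and share and the highest Pcl B fold came without Pcl A. The cause of these shifts was not tested beyond what each setting removes. Merging only peaks that share a base, added after the data were seen, gave 351 regions. No paired analysis was possible because no test was run, and the letters A and B do not tie a Pcl library to a Jarid2 library. The analysis of sequence and genes was not run. Precision is limited by counts, the smallest called being 16 reads (Pcl A) and 9 reads (Pcl B), and read totals are not in the lists.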

Other observations

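The recovered background differed between kinds of region. At the strongest summits the median background was 8.93 reads in Pcl A and 3.45 reads in Pcl B for wide Pcl-only regions. For the 74 wide regions of all 4 lists on the same arms it was 19.2 and 7.34 reads, 2.16 and 2.13 times as high. Wide Pcl-only regions of X had 6.91 and 2.70 reads. The lowest background of the whole list was 6.54 reads in Pcl A and 2.70 reads in Pcl B. The X median of Pcl B thus sat at the lowest value of its list, and that of Pcl A was close to it. The caller takes its background from a control or from the surroundings of a peak, and which of these set it here is not given in the sources used here. Within the wide regions Spearman's rho between the Pcl A and Pcl B background was 0.72, and that of count with background was 0.70 in Pcl A and 0.76 in Pcl B (n = 351 regions). These points share the control, if there was one, and the positions.

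Wide Pcl-only regions hold 8.39% of all Pcl A peaks and 21.8% of all Pcl B peaks. Of the 100 peaks of highest fold, 30 in Pcl A and 28 in Pcl B lie in them, and of the 500 highest, 173 in Pcl A and 172 in Pcl B do. Of the bases covered by a list they hold 22.3% in Pcl A and 26.4% in Pcl B. Width defines the members and went with fold, so all these numbers are partly set by the selection.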
